A study of Mus musculus with 2 samples.

Results

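Wnt signalling genes were followed from sender to receiver through the regenerating digit tips of adult mice. The genes were every feature whose symbol starts with Wnt or Fzd and a digit, together with Lrp5, Lrp6, Ror1, Ror2, Ryk, Ctnnb1, Tcf7, Tcf7l1, Tcf7l2, Lef1, Axin2, Porcn and Wls. They came to 42 of the 28001 features in the count matrices: 19 ligands, 10 Frizzled receptors, 2 co-receptors, 3 alternative receptors, beta-catenin, 4 TCF/LEF factors, the feedback gene Axin2 and 2 genes of ligand secretion. The rule reads gene symbols and uses no expression value.

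The samples were 2 droplet single-cell libraries of the tip distal to the cut, 1 from Lmx1bCreERT2;R26-LSL-TdT mice and 1 from PdgfraCreERT;R26-LSL-TdT mice, both aged 10 to 12 weeks. All mice had 3 mg tamoxifen per day on 4 days, amputation 10 days later and collection 14 days after amputation, so both lines carry the tdTomato reporter and both had the drug. In each line a drug-activated Cre marks cells that used the driver gene at the time of the drug, together with their descendants. Lmx1b is a homeobox gene of the dorsal limb, and Pdgfra encodes a growth factor receptor of fibroblast-like cells. The labels describe no sort on tdTomato and give no number of mice. The libraries are called Lmx1b and Pdgfra below.

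Wnt proteins are secreted lipid-modified signals. Porcn attaches the lipid and Wls carries the ligand to the cell surface. On the receiving cell a Frizzled with Lrp5 or Lrp6 stabilises beta-catenin (Ctnnb1), which enters the nucleus and works through the TCF/LEF factors, and Axin2 is a widely used target and brake of that branch. Ror1, Ror2 and Ryk receive ligands such as Wnt5a in branches that do not need beta-catenin. In the mouse digit tip, Wnt signalling in the nail epithelium is known to be needed for regrowth of the bone beneath it.

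After filtering, 2744 cells were kept in Lmx1b at a median of 17084 UMIs (unique molecular identifiers, 1 per captured transcript) and 2309 in Pdgfra at 9774 UMIs. The libraries shared 10 cell barcodes, 1 of them among kept cells. Classes were rebuilt from marker genes, with the 42 genes kept out of the clustering. Mesenchymal cells numbered 940 (Lmx1b) and 547 (Pdgfra), endothelial cells 688 (Lmx1b) and 503 (Pdgfra), pericytes and smooth muscle 361 (Lmx1b) and 311 (Pdgfra), cartilage cells 212 (Lmx1b) and 92 (Pdgfra) and macrophages with monocytes 129 (Lmx1b) and 132 (Pdgfra). Nail keratinocytes numbered 70 (Lmx1b) and 177 (Pdgfra), other epithelial cells 100 (Lmx1b) and 9 (Pdgfra), osteoclasts 38 (Lmx1b) and 61 (Pdgfra) and Schwann cells 36 (Lmx1b) and 101 (Pdgfra). Nail keratinocytes were shallow, at a median of 2274 UMIs (Lmx1b) and 2721 UMIs (Pdgfra). Some barcodes stood apart and stayed unnamed, 122 (Lmx1b) and 320 (Pdgfra) in all. They include 52 (Lmx1b) and 142 (Pdgfra) barcodes led by Hbb-bs and Hba-a1. Another 63, found only in Lmx1b, were led by Mt3, Aldoc and Gfap. Found only in Pdgfra were 94 led by Gm10260, Gm13305, H19 and Igf2 and 47 led by Lect1 and Matn1. The 47 scored highest on the cartilage marker list, with 7 of its markers detected, and stayed unnamed because they came from 1 library. They enter none of the cartilage levels below.

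Levels below are in CPM, a gene's UMIs summed over the cells of a class and scaled by the class's total UMIs. They need no division by gene length, because each UMI stands for the 3′ end of 1 transcript. Ranges in brackets are exact 95% intervals that cover counting error only. With 1 library per line no difference between lines could be tested, and no p-value is given. RNA set free by broken cells can add mesenchymal transcripts to other droplets. Its possible size was gauged for each class by scaling the mesenchymal level by the Col1a1 ratio of class to mesenchyme, and is called the free-RNA level. Empty droplets were not examined, and Col1a1 made by a class itself would raise this level.

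The keratinocyte classes and the mesenchyme were the strongest senders. Summed over the 19 ligands, nail keratinocytes stood at 424 CPM (Lmx1b, 372 to 482) and 701 CPM (Pdgfra, 663 to 741). The nail class itself depended on the processing. No such class was named at 200 genes and 25% mitochondrial UMIs or at 1000 genes and 5% mitochondrial UMIs. None was named with each library clustered alone. With the members allowed among the variable genes it held 8 (Lmx1b) and 24 (Pdgfra) cells. The other epithelial cells stood at 408 CPM (Lmx1b, 378 to 440.2); Pdgfra held too few of them. Mesenchymal cells stood at 332 CPM (Lmx1b, 325 to 339) and 382 CPM (Pdgfra, 372 to 391). The mesenchyme, the largest class, supplied 72.7% (Lmx1b) and 66.6% (Pdgfra) of the ligand UMIs of all named cells. Low senders were endothelial cells with 36.1 CPM (Lmx1b) and 34.3 CPM (Pdgfra) and macrophages with 28.8 CPM (Lmx1b) and 10.7 CPM (Pdgfra). The ratio of the mesenchymal to the endothelial ligand sum was 9.19 (Lmx1b, 8.27 to 10.2) and 11.1 (Pdgfra, 9.52 to 13.1). The Pdgfra ratio moved with the processing. Its log2 value of 3.47 became 2.01 when each library was clustered alone, 2.66 when each cell's CPM was averaged and 2.44 under a stricter cell filter (1000 genes and 5% mitochondrial UMIs).

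**Figure D1:**
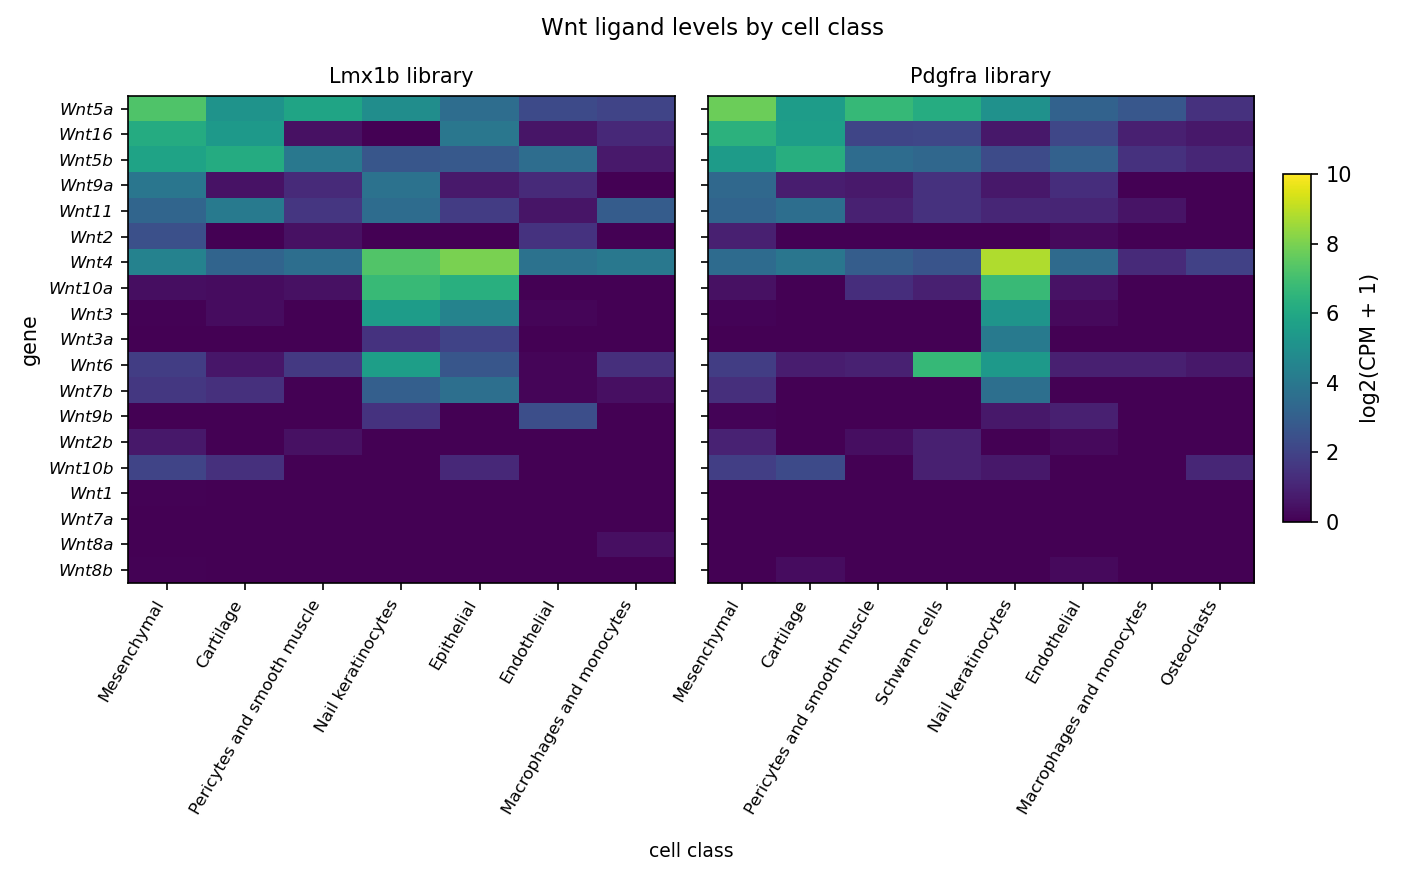
Levels of the 19 Wnt ligands (rows) in the cell classes with at least 50 cells (columns) of the Lmx1b library on the left and the Pdgfra library on the right, coloured by log2(CPM + 1). Wnt5a is highest in the mesenchymal columns. Wnt16 and Wnt5b are high in the mesenchymal and cartilage columns, and Wnt4, Wnt10a, Wnt3 and Wnt6 in the nail keratinocyte columns.

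Mesenchymal ligand RNA was led by Wnt5a (chromosome 14, 28504750 to 28527448 in GRCm38), a ligand best known for branches independent of beta-catenin. Wnt5a had 149 CPM (Lmx1b, 145 to 154) and 215 CPM (Pdgfra, 208 to 222). At least 1 Wnt5a UMI was seen in 80.1% (Lmx1b) and 87.02% (Pdgfra) of mesenchymal cells, against 6.20% (Lmx1b) and 8.33% (Pdgfra) of macrophages, which serve as a background. After thinning each cell to 2000 UMIs, which 916 (Lmx1b) and 527 (Pdgfra) mesenchymal cells and 125 (Lmx1b) and 120 (Pdgfra) macrophages reached, the shares were 23.3% (Lmx1b) and 32.8% (Pdgfra) in mesenchyme and 1.60% (Lmx1b) and 2.50% (Pdgfra) in macrophages. Wnt16, a ligand with a known role in bone strength, followed at 70.5 CPM (Lmx1b) and 85.4 CPM (Pdgfra) but in fewer cells, 31.9% (Lmx1b) and 31.4% (Pdgfra). Wnt5b, a close relative of Wnt5a, had 55.1 CPM (Lmx1b) and 44.1 CPM (Pdgfra) and was seen in 58.9% (Lmx1b) and 57.95% (Pdgfra) of cells. Thinned to 2000 UMIs, the share with Wnt16 was 9.06% (Lmx1b) and 12.1% (Pdgfra) and that with Wnt5b 10.6% (Lmx1b) and 10.2% (Pdgfra). Lower levels were found for Wnt4, at 20.8 CPM (Lmx1b) and 10.4 CPM (Pdgfra), Wnt9a, at 14.2 CPM (Lmx1b) and 9.47 CPM (Pdgfra), and Wnt11, at 8.71 CPM (Lmx1b) and 8.27 CPM (Pdgfra). The remaining 13 ligands were each under 5 CPM in the mesenchyme of both libraries.

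Keratinocytes used another set of ligands. Wnt4 reached 157 CPM (Lmx1b, 126 to 193) and 450.1 CPM (Pdgfra, 419.8 to 482) in nail keratinocytes and 253 CPM (Lmx1b, 229.6 to 279) in the other epithelial cells. Wnt10a, a ligand of skin appendages, had 107 CPM (Lmx1b) and 107 CPM (Pdgfra) in nail keratinocytes, against 0.308 CPM (Lmx1b) and 0.382 CPM (Pdgfra) in mesenchyme. Wnt3 had 44.6 CPM (Lmx1b) and 35.6 CPM (Pdgfra) in nail keratinocytes, against 0.0385 CPM (Lmx1b) and 0.0636 CPM (Pdgfra) in mesenchyme. Wnt3a was uneven, with 1.78 CPM (Lmx1b) from 1 UMI and 16.4 CPM (Pdgfra) from 30 UMIs. Wnt3, Wnt3a and Wnt10a are classical activators of the beta-catenin branch, and none reached 0.5 CPM in mesenchyme. Wnt7b was low in nail keratinocytes, at 7.13 CPM (Lmx1b) and 11.5 CPM (Pdgfra), and had 11.4 CPM (Lmx1b) in the other epithelial cells.

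Wnt6 was shared by Schwann cells, the glia of peripheral nerves, and nail keratinocytes. It had 113 CPM (Lmx1b, 82.9 to 150.04) and 104 CPM (Pdgfra, 86.7 to 124) in Schwann cells and 48.1 CPM (Lmx1b) and 40.6 CPM (Pdgfra) in nail keratinocytes, against 2.50 CPM (Lmx1b) and 2.48 CPM (Pdgfra) in mesenchyme. A Wnt6 UMI was seen in 66.7% (Lmx1b) and 48.5% (Pdgfra) of Schwann cells, against 3.88% (Lmx1b) and 1.52% (Pdgfra) of macrophages. After thinning the Schwann shares were 24.2% (Lmx1b) and 19.2% (Pdgfra). Wnt6 and Wnt10a are neighbours on chromosome 1, 6193 bases apart and on the same strand in the GENCODE vM21 annotation of GRCm38. Both were high in nail keratinocytes, but Wnt10a had 0 CPM (Lmx1b) and 0.84 CPM (Pdgfra) in Schwann cells. Another neighbouring pair is Wnt9b and Wnt3 on chromosome 11, 24328 bases apart. Wnt9b was near 0 in nail keratinocytes, at 1.78 CPM (Lmx1b) and 0.548 CPM (Pdgfra), and had 4.25 CPM (Lmx1b) from 43 UMIs and 0.832 CPM (Pdgfra) from 4 UMIs in endothelial cells.

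Mural cells and cartilage shared ligands with the mesenchyme. Pericytes and smooth muscle, the cells that wrap vessels, held Wnt5a at 56.4 CPM (Lmx1b, 50.3 to 63.1) and 102 CPM (Pdgfra, 91.98 to 114), above free-RNA levels of 8.86 CPM (Lmx1b) and 24.6 CPM (Pdgfra). Cartilage held Wnt5b at 69.4 CPM (Lmx1b) and 75.3 CPM (Pdgfra), Wnt16 at 40.5 CPM (Lmx1b) and 47.8 CPM (Pdgfra) and Wnt11 at 16.4 CPM (Lmx1b) and 11.4 CPM (Pdgfra). Its Wnt5a level, 34.4 CPM (Lmx1b) and 45.1 CPM (Pdgfra), was below its Wnt5b level, the reverse of the order in mesenchyme. The free-RNA level was not read for cartilage, whose Col1a1 was itself high.

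Endothelial and blood-derived classes of at least 50 cells had low ligand levels. Endothelial Wnt5a, at 3.76 CPM (Lmx1b) and 7.91 CPM (Pdgfra), stood beside free-RNA levels of 1.98 CPM (Lmx1b) and 8.11 CPM (Pdgfra). Endothelial Wnt4, at 12.8 CPM (Lmx1b) and 9.99 CPM (Pdgfra), exceeded its free-RNA levels of 0.276 CPM (Lmx1b) and 0.393 CPM (Pdgfra), as did Wnt5b, at 10.98 CPM (Lmx1b) and 7.70 CPM (Pdgfra) against 0.732 CPM (Lmx1b) and 1.66 CPM (Pdgfra). Lymphatic endothelial cells, 3 (Lmx1b) and 19 (Pdgfra), were too few to rank. In Pdgfra they held Wnt16 at 116 CPM (69.6 to 181) from 19 UMIs in 2 cells and Wnt5a at 48.7 CPM (21.03 to 95.97) from 8 UMIs in 3 cells, beside free-RNA levels of 8.64 CPM for Wnt16 and 21.8 CPM for Wnt5a. Macrophages differed between the libraries in Wnt4, with 15.04 CPM (Lmx1b, 11.1 to 19.9) from 48 UMIs in 20 of 129 cells and 1.29 CPM (Pdgfra, 0.266 to 3.77) from 3 UMIs in 3 of 132 cells. The ratio of Lmx1b over Pdgfra was 11.7 (3.76 to 58.6). Free-RNA levels of Wnt4 in macrophages were 0.318 CPM (Lmx1b) and 0.212 CPM (Pdgfra) scaled from mesenchyme and 0.189 CPM (Lmx1b) and 0.341 CPM (Pdgfra) scaled from epithelium by Krt14. Osteoclasts, which arise from the same blood lineage, held Wnt4 at 13.1 CPM (Lmx1b) from 17 UMIs and 2.80 CPM (Pdgfra) from 5 UMIs. Of 9 members measured in macrophages, Wnt4 and Ryk were at least 1.5-fold higher in Lmx1b, beside 9.94% of all genes, and none was lower, beside 4.38%.

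**Figure D2:**
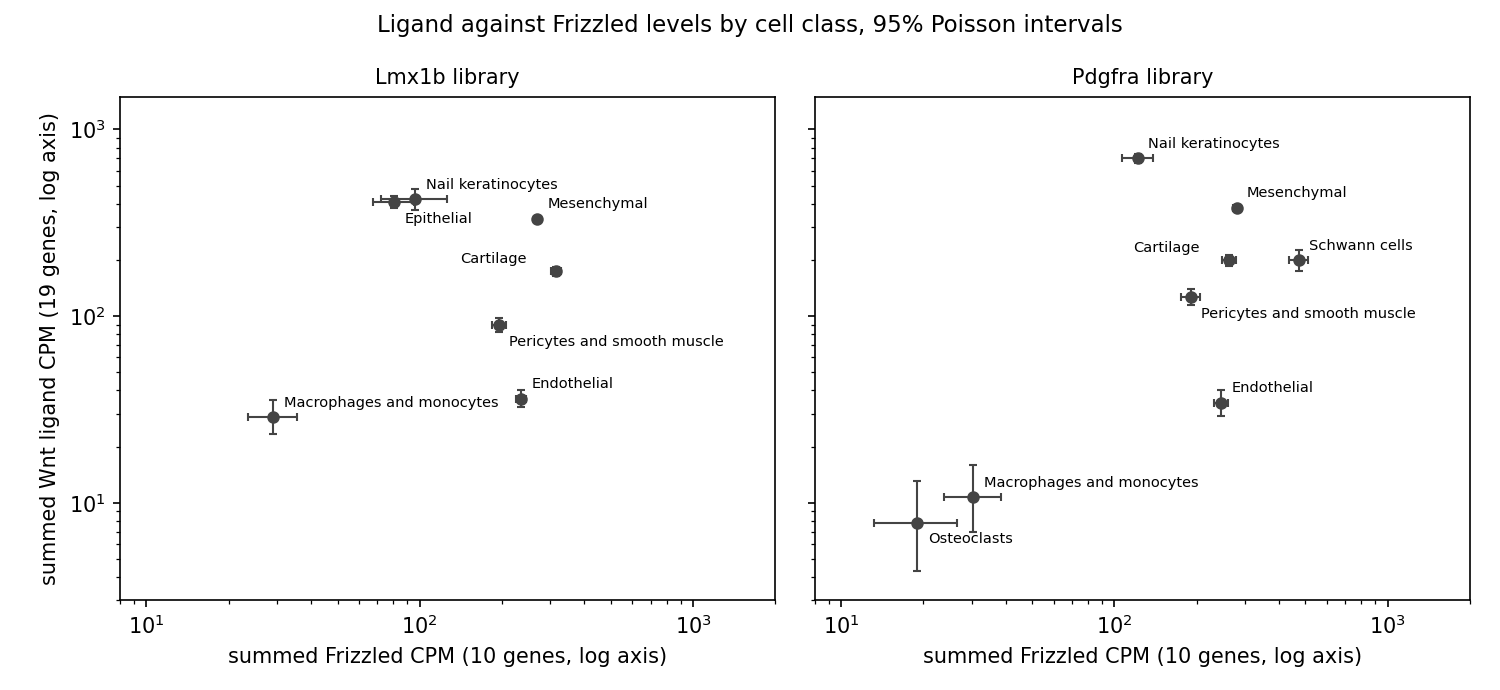
Summed CPM of the 19 Wnt ligands (vertical, log axis) against summed CPM of the 10 Frizzled receptors (horizontal, log axis) for each class with at least 50 cells, Lmx1b library on the left and Pdgfra library on the right, with 95% Poisson intervals. Endothelial cells have 235 (Lmx1b) and 246 (Pdgfra) Frizzled CPM with few ligands, nail keratinocytes many ligands with few Frizzleds, and mesenchyme is high on both axes. The highest Frizzled sums are those of cartilage in Lmx1b (316 CPM) and of Schwann cells in Pdgfra (472 CPM).

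Receiver RNA did not follow sender RNA. The 10 Frizzled genes summed to 269 CPM (Lmx1b, 263 to 275) and 279.9 CPM (Pdgfra, 272 to 288) in mesenchymal cells and 235 CPM (Lmx1b, 225 to 244) and 246 CPM (Pdgfra, 232 to 259.9) in endothelial cells, a ratio of 1.15 (Lmx1b, 1.09 to 1.20) and 1.14 (Pdgfra, 1.07 to 1.22). Lrp5 and Lrp6 together gave mesenchymal over endothelial ratios of 0.806 (Lmx1b, 0.748 to 0.868) and 0.905 (Pdgfra, 0.806 to 1.02). For the 4 TCF/LEF genes the ratios were 0.985 (Lmx1b, 0.925 to 1.05) and 0.862 (Pdgfra, 0.795 to 0.936), and their direction turned when each cell's CPM was averaged, to log2 values of 0.14 (Lmx1b) and 0.091 (Pdgfra). Macrophages were low, with 29.1 CPM (Lmx1b) and 30.5 CPM (Pdgfra) of summed Frizzled. Among classes of at least 50 cells, the Frizzled sum was highest in cartilage for Lmx1b, at 316 CPM (303 to 329). In Pdgfra it was highest in Schwann cells, at 472 CPM (434 to 513), with cartilage at 263 CPM (248 to 279). Both a ligand UMI and a Frizzled UMI were found in 88.7% (Lmx1b, 86.5 to 90.7) and 89.9% (Pdgfra, 87.1 to 92.3) of mesenchymal cells, against 15.5% (Lmx1b, 9.73 to 22.9) and 5.30% (Pdgfra, 2.16 to 10.6) of macrophages. These shares are unthinned and depend on depth.

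The leading Frizzled varied by class, and some classes shared one. Endothelial cells held Fzd4 (chromosome 7, 89404355 to 89413134 in GRCm38), a receptor known from retinal vessel growth, at 105 CPM (Lmx1b, 98.4 to 111) and 102 CPM (Pdgfra, 92.9 to 111). They held Fzd6 at 98.7 CPM (Lmx1b, 92.7 to 105) and 103 CPM (Pdgfra, 93.7 to 112). Mesenchyme had little of either, with Fzd4 at 3.58 CPM (Lmx1b) and 2.67 CPM (Pdgfra) and Fzd6 at 4.74 CPM (Lmx1b) and 3.94 CPM (Pdgfra). Its own leading receptors were Fzd1 at 85.6 CPM (Lmx1b) and 98.5 CPM (Pdgfra) and Fzd2 at 82.5 CPM (Lmx1b) and 86.5 CPM (Pdgfra), followed by Fzd8 at 24.5 CPM (Lmx1b) and 28.6 CPM (Pdgfra) and Fzd5 at 24.2 CPM (Lmx1b) and 23.2 CPM (Pdgfra). Fzd7 had 13.7 CPM (Lmx1b) and 15.4 CPM (Pdgfra) and Fzd3 5.28 CPM (Lmx1b) and 5.40 CPM (Pdgfra).

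Cartilage was led by Fzd9 (chromosome 5, 135248938 to 135251230 in GRCm38), at 175 CPM (Lmx1b, 165 to 184) and 146 CPM (Pdgfra, 135 to 159), against 23.8 CPM (Lmx1b) and 14.6 CPM (Pdgfra) in mesenchyme. Schwann cells held Fzd1 at 403 CPM (Lmx1b, 345 to 469) and 345 CPM (Pdgfra, 313 to 380.4), the highest level of any Frizzled in the classes described here. Pericytes and smooth muscle held Fzd7 at 48.01 CPM (Lmx1b) and 26.9 CPM (Pdgfra) and Fzd4 at 45.5 CPM (Lmx1b) and 62.3 CPM (Pdgfra). In Pdgfra Fzd1 was second to Fzd4 in these cells, at 40.7 CPM, above Fzd7. In nail keratinocytes Fzd6 was the most abundant Frizzled, at 28.5 CPM (Lmx1b) and 45.5 CPM (Pdgfra), and made up 29.6% (Lmx1b, 17.98 to 43.6) and 37.4% (Pdgfra, 31.00 to 44.1) of the Frizzled UMIs. In Lmx1b it was close to Fzd1, with 16 UMIs of Fzd6 and 13 of Fzd1.

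**Figure D3:**
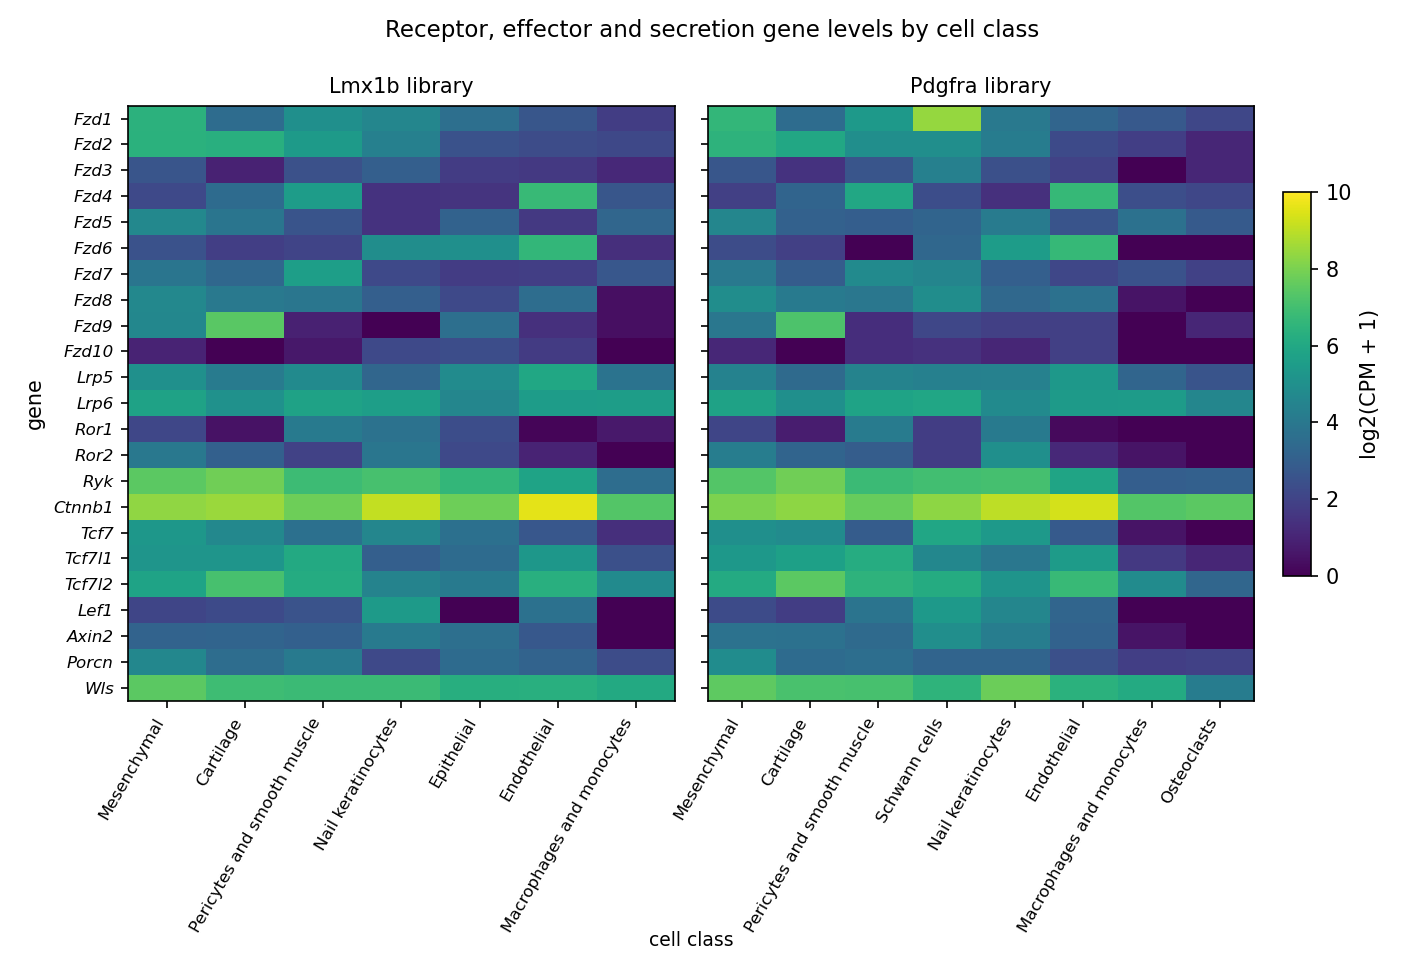
Levels of the 23 receptor, effector and secretion genes (rows) in the cell classes with at least 50 cells (columns) of the Lmx1b library on the left and the Pdgfra library on the right, coloured by log2(CPM + 1). Fzd4 and Fzd6 stand out in endothelial cells and Fzd9 in cartilage, while Ctnnb1 is high in every class.

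Co-receptors and alternative receptors also split by class. Lrp5 was highest in endothelial cells, at 60.4 CPM (Lmx1b) and 39.3 CPM (Pdgfra), against 31.9 CPM (Lmx1b) and 20.7 CPM (Pdgfra) in mesenchyme. Lrp6 was more even, at 52.8 CPM (Lmx1b) and 53.1 CPM (Pdgfra) in mesenchyme and 46.4 CPM (Lmx1b) and 43.8 CPM (Pdgfra) in macrophages. Ryk was the most abundant alternative receptor in every class with at least 50 cells, led by cartilage at 228 CPM (Lmx1b) and 228 CPM (Pdgfra). Ror2, a Wnt5a receptor, had 15.2 CPM (Lmx1b) and 17.99 CPM (Pdgfra) in mesenchyme and 14.3 CPM (Lmx1b) and 30.2 CPM (Pdgfra) in nail keratinocytes. Ror1 had 16.6 CPM (Lmx1b) and 16.7 CPM (Pdgfra) in pericytes and smooth muscle, against 0.0989 CPM (Lmx1b) and 0.208 CPM (Pdgfra) in endothelium.

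Effectors of the beta-catenin branch were spread more widely. Ctnnb1, which also serves cell adhesion, was highest in endothelial cells, at 763 CPM (Lmx1b) and 662 CPM (Pdgfra), against 326 CPM (Lmx1b) and 262 CPM (Pdgfra) in mesenchyme. Tcf7l2 led the TCF/LEF genes of cartilage, endothelium and mesenchyme. It had 136 CPM (Lmx1b) and 179.9 CPM (Pdgfra) in cartilage, 78.9 CPM (Lmx1b) and 105 CPM (Pdgfra) in endothelium and 55.3 CPM (Lmx1b) and 67.5 CPM (Pdgfra) in mesenchyme. Mesenchyme also held Tcf7l1 at 36.5 CPM (Lmx1b) and 39.7 CPM (Pdgfra) and Tcf7 at 37.7 CPM (Lmx1b) and 30.7 CPM (Pdgfra). Tcf7l1 was highest in pericytes and smooth muscle, at 67.2 CPM (Lmx1b) and 72.6 CPM (Pdgfra). In nail keratinocytes Lef1 had 42.8 CPM (Lmx1b) from 24 UMIs and 23.02 CPM (Pdgfra) from 42 UMIs. Tcf7 in the same cells had 23.2 CPM (Lmx1b) from 13 UMIs and 41.1 CPM (Pdgfra) from 75 UMIs. Schwann cells held Tcf7 at 48.0 CPM (Lmx1b) and 58.8 CPM (Pdgfra).

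Axin2 (chromosome 11, 108920349 to 108950783 in GRCm38) was low in most classes. Among Lmx1b classes of at least 50 cells it was highest in nail keratinocytes, and in cartilage when each cell's CPM was averaged. It had 33.6 CPM (Lmx1b) and 29.4 CPM (Pdgfra) in Schwann cells and 16.05 CPM (Lmx1b) and 18.1 CPM (Pdgfra) in nail keratinocytes, against 8.01 CPM (Lmx1b) and 12.5 CPM (Pdgfra) in mesenchyme and 5.74 CPM (Lmx1b) and 7.91 CPM (Pdgfra) in endothelium. Macrophages held 0 CPM (Lmx1b) and 0.429 CPM (Pdgfra), where 3 UMIs correspond to 0.94 CPM (Lmx1b) and 1.29 CPM (Pdgfra). The secretion gene Wls had 177 CPM (Lmx1b) and 181 CPM (Pdgfra) in mesenchyme, 112 CPM (Lmx1b) and 216 CPM (Pdgfra) in nail keratinocytes and 77.4 CPM (Lmx1b) and 82.2 CPM (Pdgfra) in endothelium. Porcn was highest in mesenchyme, at 24.1 CPM (Lmx1b) and 27.9 CPM (Pdgfra).

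Counted by class, 11 of 32 members measured in Lmx1b (at least 5 CPM in some class) had their highest level in mesenchyme, beside 8.07% of all genes. In Pdgfra it was 7 of 33, beside 5.81%. Fzd2, Fzd5, Fzd8, Porcn, Wnt16, Wnt5a and Wnt9a were in both counts. Cartilage was highest for Fzd9, Ryk, Tcf7l2, Wnt11 and Wnt5b in both libraries, 5 members each, beside 6.89% of all genes in Lmx1b and 6.27% in Pdgfra. Endothelium was highest for Ctnnb1, Fzd4, Fzd6 and Lrp5 in both, 4 members each, beside 23.9% in Lmx1b and 16.8% in Pdgfra. Nail keratinocytes were highest for 6 members in Lmx1b, beside 15.7%, and 7 in Pdgfra, beside 13.3%. Pericytes and smooth muscle were highest for 4 members in Lmx1b, beside 15.8%, and 3 in Pdgfra, beside 9.77%. The other epithelial cells of Lmx1b were highest for 2 members, beside 12.1%, and the Schwann cells of Pdgfra for 7, beside 22.1%. Those 7 were Axin2, Fzd1, Fzd3, Lef1, Lrp6, Tcf7 and Wnt6. No member was highest in macrophages, where 17.6% (Lmx1b) and 11.4% (Pdgfra) of all genes were, or in the osteoclasts of Pdgfra, where 14.5% were. The classes ranked differ, since Schwann cells were under 50 in Lmx1b and epithelial cells under 50 in Pdgfra.

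Within the mesenchyme the ligands were divided among subclusters, named here by 2 leading genes. The clustering left the 42 genes out but used genes that vary with them, so differences between subclusters are a description. Wnt5a was highest in the Lgr5 and Gldn cells, at 331 CPM (Lmx1b) and 320.4 CPM (Pdgfra), and the Cyp2f2 and Sfrp2 cells, at 287 CPM (Lmx1b) and 321 CPM (Pdgfra). It was low in the Gal and Dmp1 cells, which carry osteocyte genes, at 40.8 CPM (Lmx1b) and 52.8 CPM (Pdgfra). Wnt16 ran differently. It peaked in the Fndc1 and Aspn cells, at 118 CPM (Lmx1b) and 170.3 CPM (Pdgfra), and was nearly missing from the Cyp2f2 and Sfrp2 cells, at 1.17 CPM (Lmx1b) and 1.08 CPM (Pdgfra), and the Angpt2 and Fmo2 cells, at 1.57 CPM (Lmx1b) and 4.00 CPM (Pdgfra).

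Wnt11 (chromosome 7, 98835112 to 98855195 in GRCm38) was concentrated in the Cyp2f2 and Sfrp2 cells, at 78.7 CPM (Lmx1b) and 35.2 CPM (Pdgfra), followed by the Lgr5 and Gldn cells, at 39.3 CPM (Lmx1b) and 12.3 CPM (Pdgfra). In the other subclusters it stayed at or below 8.19 CPM. The Angpt2 and Fmo2 cells had the highest Wnt2, at 32.1 CPM (Lmx1b) and 13.99 CPM (Pdgfra), and Wnt9a, at 49.8 CPM (Lmx1b) and 21.99 CPM (Pdgfra). These cells also carry Kcnj8 of the pericyte list among their leading genes, and its part in the result was not tested. The A2m and Mmp13 cells held Wnt4 at 88.4 CPM (Lmx1b) and 14.04 CPM (Pdgfra) and Wnt5b at 152 CPM (Lmx1b) and 67.4 CPM (Pdgfra), with 18 cells in Pdgfra. They carry S100b of the Schwann list among their leading genes, and its part in the result was not tested.

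**Figure D4:**
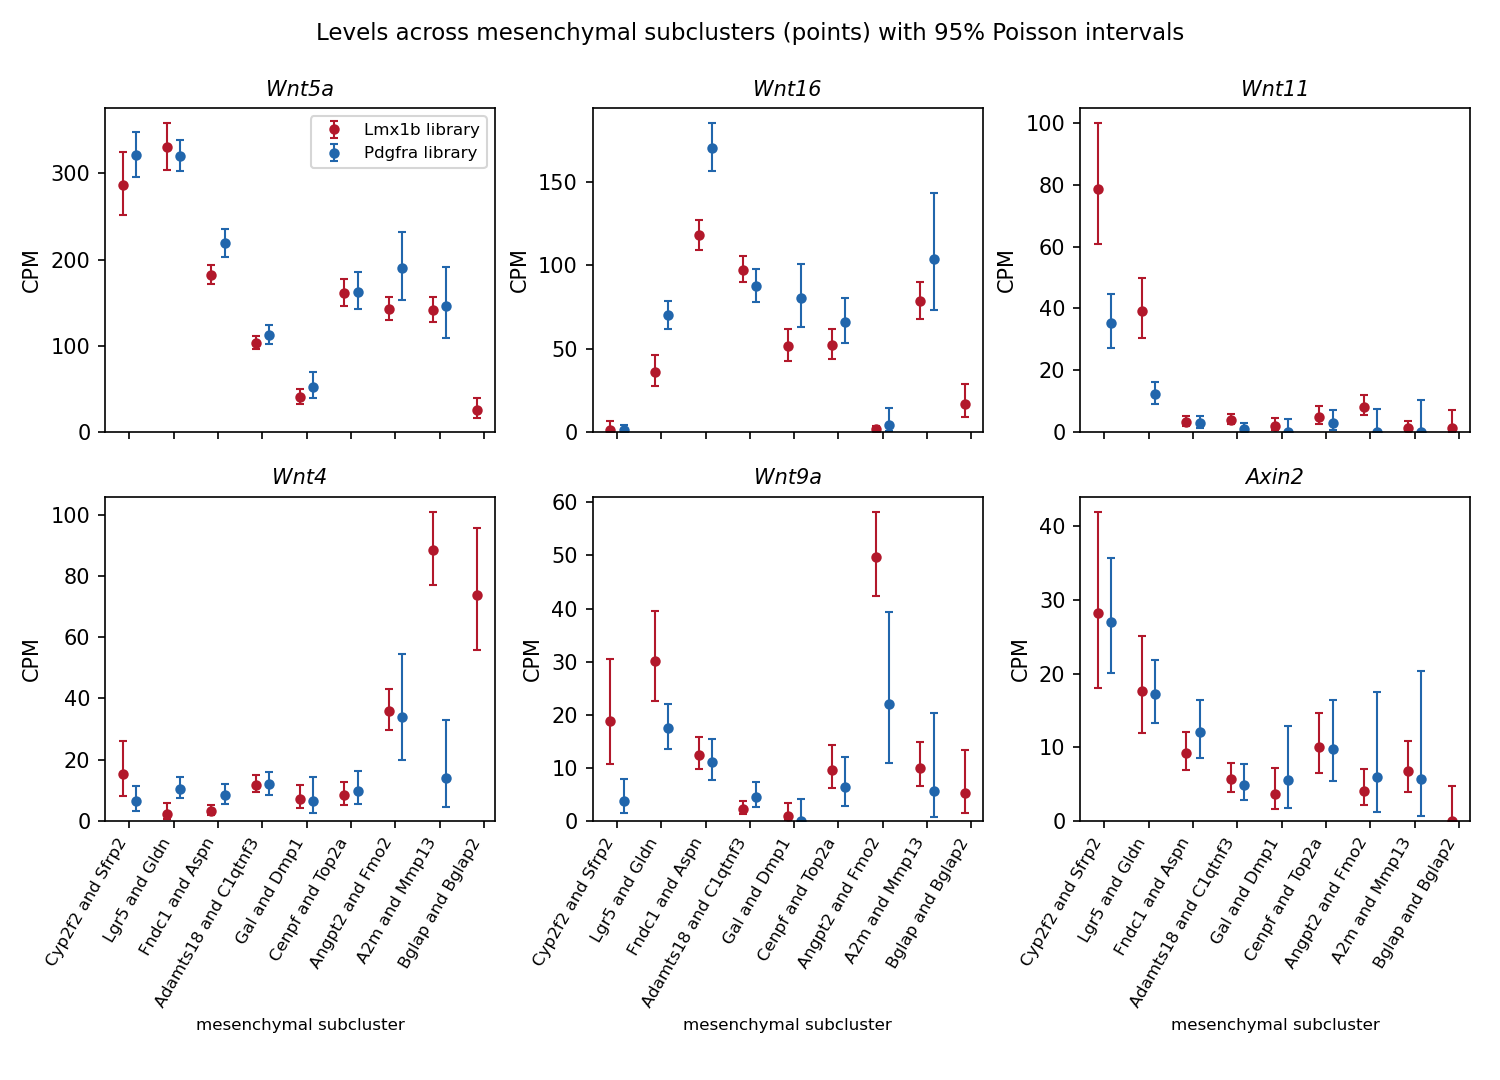
Levels (CPM) of Wnt5a, Wnt16, Wnt11, Wnt4, Wnt9a and Axin2 in each mesenchymal subcluster with at least 10 cells, Lmx1b library left of Pdgfra library in each pair, with 95% Poisson intervals. Wnt5a, Wnt11 and Axin2 are high in the Cyp2f2 and Sfrp2 cells and the Lgr5 and Gldn cells, Wnt16 peaks in the Fndc1 and Aspn cells, and the Bglap and Bglap2 cells came from Lmx1b alone.

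Receiver genes varied across the same subclusters. Axin2 had 28.2 CPM (Lmx1b) and 27.1 CPM (Pdgfra) in the Cyp2f2 and Sfrp2 cells and 17.7 CPM (Lmx1b) and 17.2 CPM (Pdgfra) in the Lgr5 and Gldn cells, against 3.62 CPM (Lmx1b) and 5.50 CPM (Pdgfra) in the Gal and Dmp1 cells. Fzd1 was highest in the same pair of subclusters, at 175 CPM (Lmx1b) and 203 CPM (Pdgfra) in the Cyp2f2 and Sfrp2 cells and 175 CPM (Lmx1b) and 142 CPM (Pdgfra) in the Lgr5 and Gldn cells. Fzd2 had 147 CPM (Lmx1b) and 109 CPM (Pdgfra) in the Cyp2f2 and Sfrp2 cells and 135 CPM (Lmx1b) and 121 CPM (Pdgfra) in the Lgr5 and Gldn cells. Porcn was highest in the Lgr5 and Gldn cells, at 54.7 CPM (Lmx1b) and 51.3 CPM (Pdgfra). Fzd9 and the TCF genes lay elsewhere. Fzd9 had 64.99 CPM (Lmx1b) and 36.2 CPM (Pdgfra) in the Adamts18 and C1qtnf3 cells, of which it was a leading gene, and 65.7 CPM (Lmx1b) and 47.3 CPM (Pdgfra) in the Gal and Dmp1 cells. Tcf7 was highest in the Adamts18 and C1qtnf3 cells, at 85.97 CPM (Lmx1b) and 63.1 CPM (Pdgfra), and Tcf7l2 in the Gal and Dmp1 cells, at 135 CPM (Lmx1b) and 211 CPM (Pdgfra).

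Labelled cells, those with tdTomato at 1600 CPM or more, were compared with unlabelled mesenchymal cells of the same library. Lmx1b had 66 labelled and 874 unlabelled cells, at a median of 24075 UMIs in labelled and 25594 UMIs in unlabelled cells. Pdgfra had 481 labelled and 66 unlabelled cells, at a median of 25787 UMIs in labelled and 15663 UMIs in unlabelled cells. A member was measured at 5 CPM over both sides, and was called higher or lower past 1.5-fold of CPM + 1. Of 24 members measured in Lmx1b, 6 were higher in labelled cells, beside 12.0% of all genes, and 5 were lower, beside 10.5%. Of 24 in Pdgfra, 10 were higher, beside 18.7% of all genes, and 2 were lower, beside 6.26%. With labelled cells set at 3200 CPM or more, 3 were higher in Pdgfra. The median log2 difference of the members was 0.11 (Lmx1b) and 0.18 (Pdgfra), against 0.079 (Lmx1b) and 0.16 (Pdgfra) over all genes.

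Wnt11, Axin2, Wnt5a, Fzd1 and Fzd2 were higher in labelled cells of both libraries. Wnt11 had 48.03 CPM in labelled and 6.33 CPM in unlabelled Lmx1b cells, a ratio of 7.58 (5.64 to 10.1), and 9.04 CPM in labelled and 1.79 CPM in unlabelled Pdgfra cells, a ratio of 5.05 (1.69 to 24.8) that rests on 3 unlabelled UMIs. Under the stricter cell filter the Pdgfra difference of Wnt11 turned round, to -0.71 on the log2 scale. Axin2 had 22.3 CPM in labelled and 7.15 CPM in unlabelled Lmx1b cells, a ratio of 3.12 (2.08 to 4.55), and 13.4 CPM in labelled and 5.37 CPM in unlabelled Pdgfra cells, a ratio of 2.49 (1.29 to 5.53). Wnt5a had 248 CPM in labelled and 143 CPM in unlabelled Lmx1b cells, a ratio of 1.73 (1.55 to 1.93), and 226 CPM in labelled and 125 CPM in unlabelled Pdgfra cells, a ratio of 1.80 (1.57 to 2.08). The ratio of Fzd1 was 1.60 (1.38 to 1.86) in Lmx1b and 2.08 (1.67 to 2.62) in Pdgfra. That of Fzd2 was 1.76 (1.52 to 2.04) in Lmx1b and 1.79 (1.44 to 2.26) in Pdgfra. In Lmx1b, Wnt11, Axin2, Wnt5a and Fzd2 stayed past 1.5-fold under all 11 other settings tried and Fzd1 under 9. In Pdgfra, Wnt11, Axin2 and Fzd1 did so under 9 and Wnt5a and Fzd2 under 8. Fzd9 was lower in labelled cells of both, with 8.79 CPM in labelled and 24.7 CPM in unlabelled Lmx1b cells and 11.6 CPM in labelled and 39.4 CPM in unlabelled Pdgfra cells.

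Other members passed the fold in 1 library. Wnt16 was lower in labelled cells of Lmx1b, with 12.2 CPM in labelled and 73.99 CPM in unlabelled Lmx1b cells, a ratio of 0.165 (0.0973 to 0.261). In Pdgfra its ratio was 1.06 (0.886 to 1.27). Fzd5 had 8.12 CPM in labelled and 25.2 CPM in unlabelled Lmx1b cells, Wnt4 7.44 CPM in labelled and 21.6 CPM in unlabelled Lmx1b cells and Tcf7 23.00 CPM in labelled and 38.6 CPM in unlabelled Lmx1b cells, all lower in labelled cells. Lrp6 was higher, with 78.5 CPM in labelled and 51.2 CPM in unlabelled Lmx1b cells. In Pdgfra the ratio was 2.77 (1.48 to 5.85) for Fzd7, 2.50 (1.60 to 4.13) for Porcn, 1.87 (1.14 to 3.25) for Ror2, 1.56 (1.09 to 2.31) for Fzd8 and 1.86 (0.95 to 4.14) for Wnt9a, whose interval includes 1. Tcf7l2 was lower there, with 62.1 CPM in labelled and 113 CPM in unlabelled Pdgfra cells. Of the 11 other settings, Wnt16 and Fzd5 in Lmx1b stayed past 1.5-fold under all, Wnt4 under 10, Tcf7 under 8 and Lrp6 under 7. In Pdgfra, Porcn, Ror2 and Wnt9a did so under 9, Tcf7l2 under 8 and Fzd7 and Fzd8 under 7. Other settings turned the direction of Wnt4 in Lmx1b, to 0.16 on the log2 scale under the stricter cell filter. They turned Wnt9a in Pdgfra to -0.20 with labelled cells set at 800 CPM or more, and Tcf7l2 in Pdgfra to 0.21 at 3200 CPM or more. Whether any of these differed between the lines was not tested.

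**Figure D5:**
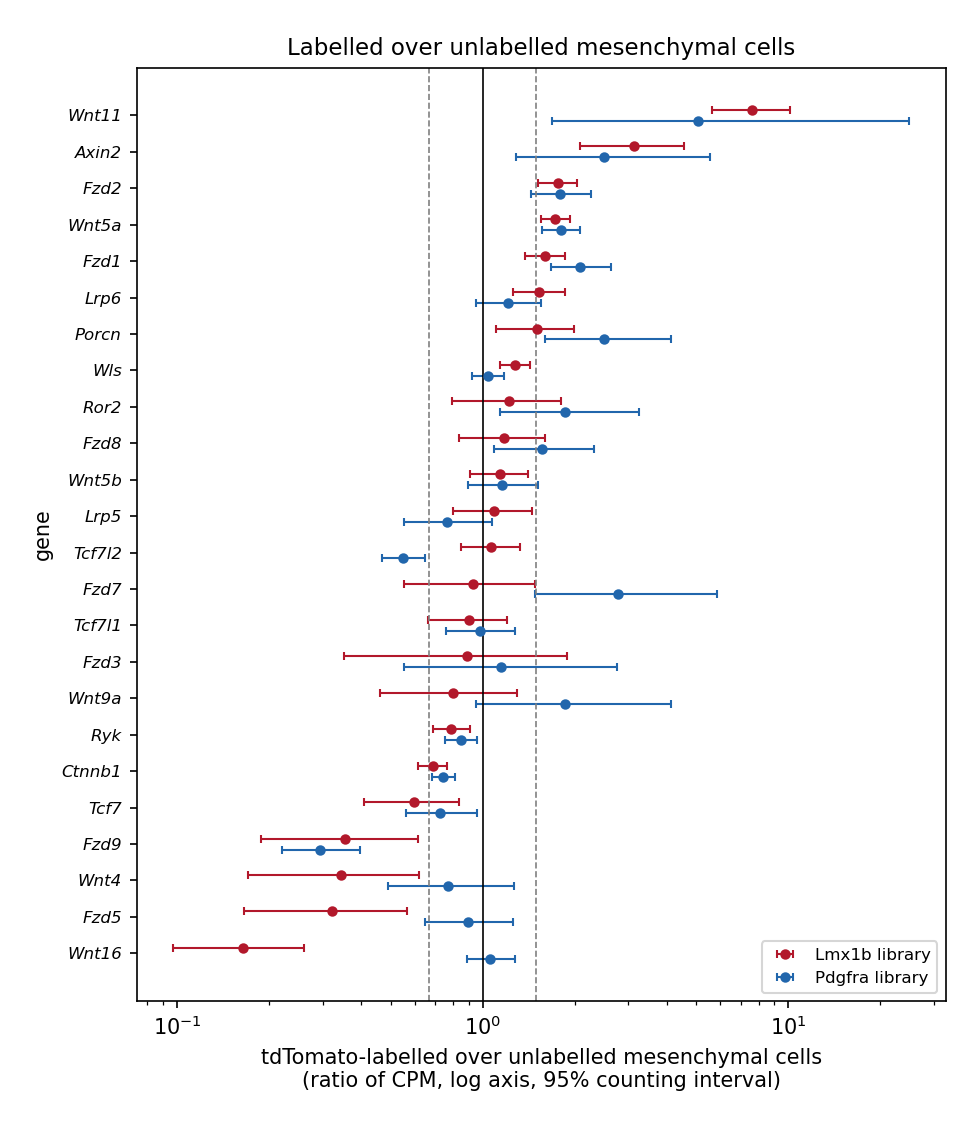
Ratio of CPM in tdTomato-labelled over unlabelled mesenchymal cells (log axis) for the members measured in each library, with 95% counting intervals and dashed lines at 1.5-fold. Wnt11 has the highest ratio in both libraries (7.58 in Lmx1b and 5.05 in Pdgfra), Fzd9 is below the lower line in both, and Wnt16 is far below it in Lmx1b alone.

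Labelling itself moved with the subclusters. In Lmx1b, 69.8% (53.9 to 82.8) of the Cyp2f2 and Sfrp2 cells and 22.7% (13.3 to 34.7) of the Lgr5 and Gldn cells were labelled, against at most 5.47% of any other subcluster in the class. In Pdgfra, 27.6% (12.7 to 47.2) of the Gal and Dmp1 cells were labelled, against at least 65.8% of any other. Within the Cyp2f2 and Sfrp2 cells of Lmx1b (30 labelled, 13 unlabelled) the ratio was 1.28 (0.744 to 2.28) for Wnt11, 1.28 (0.965 to 1.70) for Wnt5a and 0.644 (0.266 to 1.59) for Axin2. Within the Lgr5 and Gldn cells (15 labelled, 51 unlabelled) it was 1.13 (0.627 to 1.94) for Wnt11, 0.863 (0.705 to 1.05) for Wnt5a and 1.63 (0.706 to 3.57) for Axin2. All 6 intervals include 1. Fzd2 was higher in labelled Cyp2f2 and Sfrp2 cells, by a ratio of 1.89 (1.23 to 2.98). Wnt16 was lower in the 11 labelled Fndc1 and Aspn cells of Lmx1b, with 2 labelled and 687 unlabelled UMIs, a ratio of 0.0561 (0.0068 to 0.203).

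Members were also counted within the subclusters that held at least 10 labelled and 10 unlabelled cells. In the Cyp2f2 and Sfrp2 cells of Lmx1b 6 of 23 members were higher, beside 19.4% of all genes, and 4 lower, beside 16.1%. The Lgr5 and Gldn cells had 3 of 25 higher, beside 11.5%, and 7 lower, beside 17.7%. The Fndc1 and Aspn cells had 3 of 21 higher, beside 11.1%, and 5 lower, beside 22.8%. Among Pdgfra subclusters, the Cenpf and Top2a cells had 9 of 24 higher, beside 20.0%, and 6 lower, beside 18.5%. Depth was uneven there, with a median of 32539 UMIs in the 25 labelled cells and 3730 UMIs in the 13 unlabelled cells. The Adamts18 and C1qtnf3 cells had 3 of 21 higher, beside 12.9%, and 8 lower, beside 14.1%. Their median was 37037 UMIs in 76 labelled cells and 17381 UMIs in 15 unlabelled cells. The part of depth in these counts was not tested.

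Promoters are shown for the genes higher in labelled cells of both libraries, so that the sequence before each start can be read. The RefSeq promoter table (GRCm38.p6) held 31 of the 42 members and 3 of these 5, Wnt11, Axin2 and Fzd1. Given are the 250 bases before the start, 5′ to 3′ on the gene's strand, in lower case. Capitals mark a match on either strand to a TCF/LEF-type word, which is CTTTGAA, the word CTTTGAT, the word CTTTGTA or the word CTTTGTT. The regions are chr7:98834862-98835111 for Wnt11 (plus strand, 1 of 2 starts), chr11:108920099-108920348 for Axin2 (plus strand) and chr5:4758217-4758466 for Fzd1 (minus strand).
Wnt11: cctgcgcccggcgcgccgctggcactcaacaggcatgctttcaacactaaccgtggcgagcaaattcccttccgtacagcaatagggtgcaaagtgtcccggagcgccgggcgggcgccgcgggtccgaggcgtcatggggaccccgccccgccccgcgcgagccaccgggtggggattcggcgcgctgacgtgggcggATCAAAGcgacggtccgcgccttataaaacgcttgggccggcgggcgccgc
Axin2: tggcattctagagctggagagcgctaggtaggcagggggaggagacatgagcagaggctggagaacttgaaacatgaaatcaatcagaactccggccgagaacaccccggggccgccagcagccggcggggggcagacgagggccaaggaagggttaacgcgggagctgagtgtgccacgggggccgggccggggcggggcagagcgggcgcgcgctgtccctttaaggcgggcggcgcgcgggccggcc
Fzd1: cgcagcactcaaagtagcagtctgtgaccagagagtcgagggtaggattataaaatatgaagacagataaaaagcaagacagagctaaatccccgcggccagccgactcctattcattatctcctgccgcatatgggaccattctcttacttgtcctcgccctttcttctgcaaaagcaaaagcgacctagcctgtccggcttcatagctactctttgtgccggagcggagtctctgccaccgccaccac
Wnt11 held 1 match at this start and none at its other one, and Axin2 and Fzd1 held none of these letters in the window. A match was found in 14.8% of all 32851 promoters in the table and in 12.5% of the 40 promoters of members.

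Of 62 other pathway genes, 49 were measured in each library. Higher in labelled cells were 18 (Lmx1b) and 14 (Pdgfra), beside 12.0% (Lmx1b) and 18.7% (Pdgfra) of all genes. Lower were 7 (Lmx1b) and 5 (Pdgfra), beside 10.5% (Lmx1b) and 6.26% (Pdgfra). The highest ratios in Lmx1b were those of the secreted Wnt modulator Sfrp2, 25.5 (24.6 to 26.4), the R-spondins Rspo4, 20.2 (14.9 to 27.5), and Rspo1, 9.80 (7.47 to 12.8), and the inhibitor Dkk2, 5.23 (4.58 to 5.96). In Pdgfra they were Sfrp2, 33.97 (25.3 to 46.8), Rspo4, 27.5 (7.57 to 228), Rspo1, 17.9 (6.07 to 86.9), and the R-spondin receptor Lgr5, 15.2 (5.90 to 56.04). The Rspo4, Rspo1 and Lgr5 ratios in Pdgfra rest on 2, 3 and 4 unlabelled UMIs. R-spondins strengthen Wnt signals by keeping Frizzleds on the cell surface. Ranked by fold of CPM + 1, the lowest in Lmx1b were Sfrp4, Dkk1, Frzb and Lgr5, at ratios of 0.0701, 0.223, 0.272 and 0.311. Sost came next in that order, with a ratio of 0.2685 (0.0549 to 0.797) that rests on 3 labelled UMIs. The lowest in Pdgfra were Dkk1, Lgr6, Frzb and Wif1, at ratios of 0.125, 0.231, 0.328 and 0.386. Lgr5 was thus low in labelled cells of Lmx1b and high in those of Pdgfra, and the difference was not tested. Sfrp2, Rspo4 and Lgr5 are leading genes of subclusters that differ in their labelled share, and the part of that share in these ratios was not tested. The Lgr5 and Gldn cells were 22.7% labelled in Lmx1b, where the Lgr5 ratio was 0.311, and 97.6% labelled in Pdgfra.

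Between the lines, members were first compared in whole mesenchyme. Of 24 measured, 3 were higher in Lmx1b, beside 2.65% of all genes, and 1 was lower, beside 2.55%. The higher ones were Wnt4 (20.8 CPM in Lmx1b against 10.4 CPM in Pdgfra), Fzd9 (23.8 CPM in Lmx1b against 14.6 CPM in Pdgfra) and Lrp5 (31.9 CPM in Lmx1b against 20.7 CPM in Pdgfra), and the lower one was Axin2 (8.01 CPM in Lmx1b against 12.5 CPM in Pdgfra). Subcluster sizes differed too. The Cyp2f2 and Sfrp2 cells, where Axin2 was highest, numbered 43 (Lmx1b) and 117 (Pdgfra), and the A2m and Mmp13 cells, where Wnt4 was highest in Lmx1b, 114 (Lmx1b) and 18 (Pdgfra).

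Members past 1.5-fold were also counted in other classes. In endothelium Porcn and Lrp5 were higher in Lmx1b, beside 3.32% of all genes, and Wnt5a was lower, beside 3.03%, with free-RNA levels as given above. In cartilage Fzd5 and Lrp5 were higher, beside 2.84%, and Wnt4 was lower, beside 7.2%. Lrp5 was thus at least 1.5-fold higher in Lmx1b in mesenchyme, endothelium and cartilage, but not in every class. In nail keratinocytes Lrp5 was lower in Lmx1b, at 8.91 CPM against 20.3 CPM in Pdgfra. The Lmx1b value rests on few UMIs, since Lrp5 and Lrp6 together had 32 there and 84.4% of them were Lrp6. Lrp5 was also lower in the Schwann cells of Lmx1b, which numbered 36. These held 23 UMIs of Lrp5 and Lrp6 together, 87.0% of them Lrp6, so this value too rests on few UMIs. Pericytes and smooth muscle held Lrp5 at 26.3 CPM in Lmx1b against 21.4 CPM in Pdgfra. Macrophages held it at 13.2 CPM in Lmx1b against 8.59 CPM in Pdgfra. Both were short of 1.5-fold of CPM + 1. In pericytes and smooth muscle Fzd7, Tcf7 and Wnt4 were higher, beside 7.36%, and Lef1 and Wnt5a were lower, beside 5.48%. Wnt5a there had 56.4 CPM in Lmx1b against 102 CPM in Pdgfra, a ratio of 0.551 (0.471 to 0.644), with free-RNA levels as given above. The clusters of this class differed in size. Those led by Tagln, Mstn and Kcnj8 held 81, 62 and 126 cells in Lmx1b and 26, 2 and 128 in Pdgfra. Those led by Il6 and Actg2 held 36 and 56 cells in Lmx1b and 74 and 81 in Pdgfra. Their part in the result was not tested. In nail keratinocytes 3 of 27 members were higher, beside 12.9%, and 13 were lower, beside 24.6%. Wnt4 was among the lower, with 157 CPM in Lmx1b against 450.1 CPM in Pdgfra, a ratio of 0.349 (0.277 to 0.435). Line, library and animal cannot be told apart in these comparisons.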

How the data were processed

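Both matrices, deposited by the authors, hold raw UMI counts for each gene in each barcode. Cell Ranger 4.0.0 made them, per the file headers. Reads had been aligned to mm10 with a tdTomato sequence, per the labels' protocols. The rule by which barcodes were called cells is not given in the sources used here. The matrices held 5991 barcodes and 66867027 UMIs (Lmx1b) and 5032 barcodes and 49084751 UMIs (Pdgfra).

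Filters kept barcodes of 500 or more genes whose mitochondrial share was 10% or lower. Scrublet (scanpy 1.11.5) scored doublets. Its automatic threshold marked 0 barcodes, so the highest scorers were removed at a rate rising with barcode number, 287 (Lmx1b) and 203 (Pdgfra). The libraries were clustered jointly on 2000 variable genes without the members, tdTomato, Xist or Y-linked genes (30 components, 15 neighbours, Leiden resolution 1.0). This gave 29 clusters, of which 4 stayed unnamed for want of markers, low UMIs or origin in 1 library. Classes were named from marker lists. The mesenchymal class holds bone-lineage cells and was split again (20 components, resolution 0.6) into 10 subclusters, 1 of which, led by Col2a1 and Flt1 with endothelial markers (7 cells in Lmx1b, 37 in Pdgfra), was left out.

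UMIs were summed per class and given as CPM with exact Poisson intervals, shares with Clopper-Pearson intervals and ratios with exact intervals of 2 Poisson counts, all at 95%. Log2 differences used a pseudocount of 1 CPM. The calculations were tested on simulated data. Thinning to 2000 UMIs dropped shallower cells. The members, gene lists, markers and the 1600 CPM threshold were chosen with earlier results of these data known. The rule for naming took members leading their role in a class of 50 or more cells, those at 5 CPM or more in mesenchyme, those past 1.5-fold between labelled and unlabelled cells, Axin2, Ctnnb1, Porcn and Wls, and the 4 highest and 4 lowest other pathway genes. Wnt2, Wnt3, Wnt3a, Wnt6, Wnt7b, Wnt9b, Wnt10a, Fzd3 and Ror1, where outside it, were chosen after their values were seen. Alternatives changed the cell filter, doublet step, weighting, denominator, clustering, tdTomato threshold and filter on low levels.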

Additional observations from a re-analysis of the deposited data

Results flagged for a closer look

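Unnamed barcodes, which enter no comparison, held Wnt ligand UMIs above the limit that a count of 0 allows (3 counts). The 94 Pdgfra barcodes led by Gm10260, Gm13305, H19 and Igf2 had a summed ligand level of 356 CPM (278 to 449) from 71 UMIs, led by Wnt5a at 170.3 CPM. The barcodes led by Hbb-bs, Hba-a1 and Prrx2 had 147 CPM in Lmx1b (80.3 to 246, 14 UMIs) and 201 CPM in Pdgfra (151 to 264, 53 UMIs), again led by Wnt5a. The 63 Lmx1b barcodes led by Mt3, Aldoc, Lcn2 and Gfap had 94.3 CPM (34.6 to 205) from 6 UMIs, where 3 UMIs correspond to 47.2 CPM. Col1a1 had 27713 CPM in the barcodes led by Gm10260 and 60299 CPM (Lmx1b) and 22749 CPM (Pdgfra) in those led by Hbb-bs. It had 1714 CPM in those led by Mt3, against 50899 CPM (Lmx1b) and 34097 CPM (Pdgfra) in mesenchyme. The part of mesenchymal RNA in these ligand levels was not tested.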

How the results depend on the processing

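Log2 ratios of mesenchyme over endothelium were 3.20 (Lmx1b) and 3.47 (Pdgfra) for the ligands, 0.20 (Lmx1b) and 0.19 (Pdgfra) for the Frizzleds and -0.022 (Lmx1b) and -0.21 (Pdgfra) for TCF/LEF. The ligand and Frizzled ratios kept their direction under all 9 alternatives tried, and the TCF/LEF ratios did not. At 1000 genes and 5% mitochondrial UMIs the ligand ratio was 2.83 (Lmx1b) and 2.44 (Pdgfra), the Frizzled ratio 0.27 (Lmx1b) and the TCF/LEF ratio 0.083 (Lmx1b) and 0.20 (Pdgfra). There 18 members were highest in Pdgfra mesenchyme, since fewer classes kept 50 cells, and 5 were lower in its labelled cells. Wnt4 in Lmx1b and Wnt11 in Pdgfra turned round there, to labelled over unlabelled log2 differences of 0.16 and -0.71. Averaging each cell's CPM gave Frizzled ratios of 0.29 (Lmx1b) and 0.35 (Pdgfra), TCF/LEF ratios of 0.14 (Lmx1b) and 0.091 (Pdgfra) and a ligand ratio of 2.66 (Pdgfra). Leaving the 50 most abundant genes out of the denominator gave a ligand ratio of 3.37 (Lmx1b), Frizzled ratios of 0.37 (Lmx1b) and 0.35 (Pdgfra), TCF/LEF ratios of 0.15 (Lmx1b) and -0.057 (Pdgfra), and 5 members lower in labelled Pdgfra cells. The ligand ratio was 2.96 in Lmx1b without doublet removal and 2.01 in Pdgfra with each library clustered alone. Members higher in labelled Pdgfra cells numbered 5 at 200 genes and 25% mitochondrial UMIs and 3 with labelled cells at 3200 CPM, and 5 were lower at a minimum of 1 CPM. Wnt9a turned to -0.20 at 800 CPM and Tcf7l2 to 0.21 at 3200 CPM, both in Pdgfra. The cause was not tested. Wnt11, Axin2, Fzd2, Wnt5a, Wnt16, Fzd5 and Fzd9 in Lmx1b, and Fzd9 in Pdgfra, stayed past 1.5-fold in all 11 alternatives. Keeping the mixed subcluster and leaving out cells under 5000 UMIs were chosen after seeing the data. No paired analysis was possible because each line has 1 library. Nail keratinocytes are limited by low depth and by a class that depended on the clustering and the cell filter. The labelled comparison in Pdgfra is limited by its 66 unlabelled cells.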
